A study of Mus musculus with 6 samples.

Results

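The 60 genes described here encode proteins of ribosome assembly and rRNA processing. They are the nucleolar factors that fold, cleave and modify pre-ribosomal RNA and build the 40S and 60S subunits. The list was given by name, and 59 of the 60 were found among 46983 genes by their GENCODE vM21 identifiers. Riok2, a kinase of late 40S maturation, could not be matched by identifier and was not analysed here. All 59 passed the filter on low counts, with 66 to 4008 reads per gene and library.

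Ribosome production starts in the nucleolus, where RNA polymerase I makes a long precursor of the ribosomal RNAs. Small nucleolar ribonucleoproteins (snoRNPs) modify this precursor. The box C/D type adds 2'-O-methyl groups to ribose and the box H/ACA type turns uridine into pseudouridine. Assembly factors then join the RNA in order, forming the small subunit processome and the pre-60S particles, and leave as the subunits mature. A resting naive T cell makes few ribosomes, and nucleolar genes are among those that rise when T cells are activated.

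The RNA was depleted of ribosomal RNA and came from naive CD4 T cells, sorted from lymph nodes of male mice as TCR-beta, CD4 and CD62L positive and CD44 negative live cells. All mice carried floxed Cmtr1 alleles (Cmtr1 fl/fl). The 2 control libraries came from mice without CD4cre, and the 4 libraries labelled Cmtr1 cKO from mice with CD4cre, a transgene that recombines floxed alleles in developing T cells, those of the CD8 lineage included. CMTR1 methylates the ribose of the first nucleotide after the mRNA cap, and the comparison asks how the naive T cell transcriptome depends on it. The labels give neither ages nor whether each library is a separate mouse. The p-values therefore measure only how far these libraries spread, and that spread may be technical. In every mean ± SD, n = 2 for the controls and n = 4 for Cmtr1 cKO.

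Gene counts ran from 9513874 (Cmtr1 cKO 3) to 11949838 (control 1) per library, of which the members took 0.421% to 0.501%. Reads on no annotated exon of the strand used for counting (non-exon reads below) made up 37.2% and 34.0% of uniquely mapped reads in the controls. In Cmtr1 cKO 1 to 4 they made up 52.3%, 51.6%, 46.7% and 38.0%. Reads antisense to exons are among them. In Cmtr1 cKO 3 the counted strand held 5.57 times as many gene reads as the other strand, against 18.7 to 22.7 times elsewhere. In Cmtr1 cKO 3, 4.77% of gene counts fell on 1 gene annotated as ribosomal RNA. Cmtr1 itself was at 11.2 and 11.4 CPM (counts scaled to a common library size) in the controls and at 16.0, 19.8, 14.6 and 7.57 CPM in Cmtr1 cKO 1 to 4. Of its exon bases, 36.3% are shared with an overlapping gene on the same strand. Which exon is deleted is unknown here. This level therefore does not check the labels, and directions are those of the libraries as labelled. Naive CD4 T cell markers were abundant, at a summed 5284 to 6198 CPM over 9 genes. The sum of 10 proliferation markers was 34.7 and 38.2 CPM in the controls against 66.1 to 84.1 CPM in Cmtr1 cKO. Of these, 5 were called higher by edgeR (Mki67, Top2a, Birc5, Ccna2 and Nusap1), and Ccr7 was called lower among the naive markers. DESeq2 called 3 proliferation markers higher, and of the naive markers 1 higher and 1 lower. The sum of 10 activation markers was 414 and 433 CPM in the controls against 421 to 479 CPM in Cmtr1 cKO, with 1 called higher and 1 lower by edgeR. Summed B cell markers were at 363 and 375 CPM against 279 to 312 CPM, with Ighm called lower and 0 of the 5 at 0. Summed CD8 markers were at 23.6 and 28.7 against 17.0 to 21.3 CPM, myeloid markers at 6.22 and 18.8 against 4.73 to 7.68 CPM, and NK markers at 4.90 and 9.23 against 3.70 to 5.51 CPM. The part of these cells in the values below was not tested. For the non-exon reads, values from a fit with their percent as a covariate are given below. That percent was higher in every Cmtr1 cKO library than in both controls, so this fit cannot fully separate it from genotype. Its values are descriptions and not corrections of the main fit. Whether the percent itself follows from the genotype was not tested. In bulk RNA, fewer cells of a type and less RNA per cell cannot be told apart.

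Most assembly factor mRNAs differed little between the genotypes. Of the 59 members, 5 were higher and 2 lower in Cmtr1 cKO by edgeR's quasi-likelihood test (adjusted p under 0.05, Benjamini-Hochberg over 12748 genes). Nop14, Utp18, Noc3l, Wdr12 and Nvl rose, and Pes1 and Ddx21 fell. As shares these are 8.47% and 3.39% of members, beside 4.66% of all genes tested called higher and 6.77% called lower. In either direction 11.9% of members and 11.4% of all genes were called, so the members were called about as often as genes at large. Their median log2 fold change was 0.06, from -0.36 (Pes1) to 0.46 (Nop14), where that of all genes tested was -0.00047.

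Intervals from the fit on genotype alone were narrow for the uncalled members. Of the 52 members not called, 50 had a 95% interval of the log2 fold change that lay wholly between -0.5 and 0.5, and for all 52 it lay between -1 and 1. Over all 59 members, called ones included, the median half-width was 0.19. These intervals hold for that fit: when the percent of non-exon reads was added to the fit, 9 of the 52 members had values outside them, among them Fbl at 0.36, Nhp2 at 0.24 and Mybbp1a at 0.41. Bms1, a GTPase of the small subunit processome, had -0.008 (95% interval -0.15 to 0.14) and Wdr3, a component of the same particle, 0.0016 (-0.15 to 0.15). Both were chosen after their values were seen, as examples of the smallest differences.

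**Figure D1:**
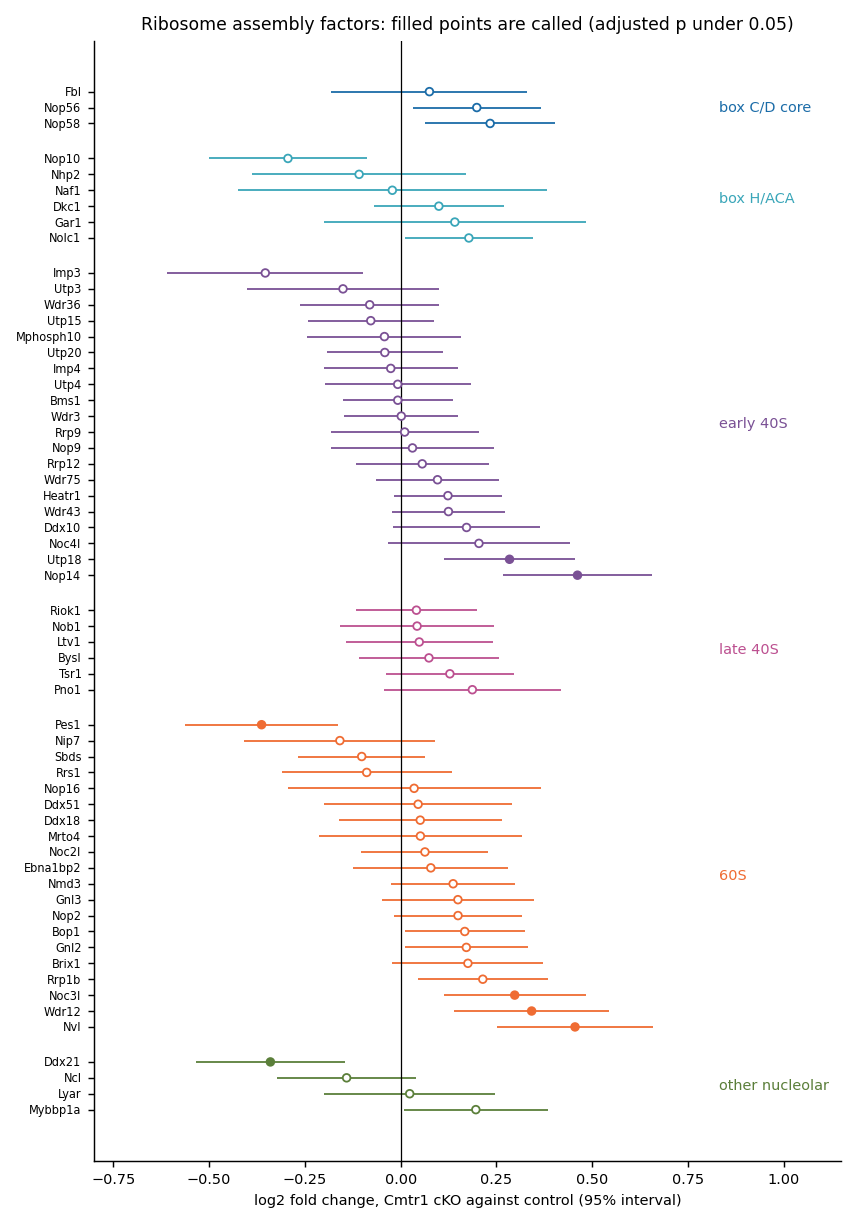
Log2 fold change of each of the 59 members, Cmtr1 cKO against control, with its 95% interval from edgeR, grouped by assembly step; filled points are the 7 called members. Most intervals cross 0, and the values run from -0.36 (Pes1) to 0.46 (Nop14).

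Ribosomal protein mRNAs, the protein part of the subunits, had quite different values in these libraries. The 84 tested ribosomal protein genes had a median log2 fold change of -0.95, with 80 called lower and 0 higher (-0.59 with the percent of non-exon reads as a covariate). Their summed level was 77291 ± 3901 CPM (SD) in the controls and 39364 ± 6123 CPM in Cmtr1 cKO. The members' summed level was 4527 and 4547 CPM in control cells, against 4540, 4528, 4711 and 4970 CPM in Cmtr1 cKO 1 to 4. Per CPM of assembly factor mRNA there were 16.5 and 17.6 CPM of ribosomal protein mRNA in the controls, and 7.32, 7.93, 8.76 and 9.47 in Cmtr1 cKO 1 to 4. This ratio is taken within a library and does not depend on scaling, and the groups do not overlap.

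**Figure D2:**
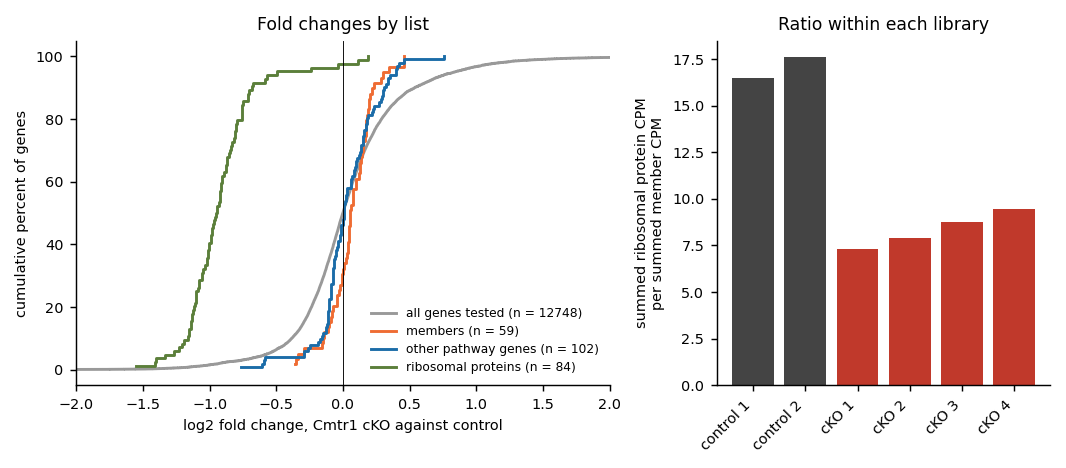
Left, cumulative percent of genes by log2 fold change (Cmtr1 cKO against control) for all 12748 genes tested, the 59 members, 102 other pathway genes and 84 ribosomal protein genes; right, summed ribosomal protein CPM divided by summed member CPM in each library. The members' curve crosses 50% near 0 and that of the ribosomal proteins near -0.95, and the ratio is 16.5 or more in the controls and 9.47 or less in Cmtr1 cKO.

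The box C/D core holds fibrillarin (Fbl), the methyltransferase itself, and the scaffold proteins Nop56 and Nop58. Nop56 was at 143 and 129 CPM in control cells, against 145, 156, 159 and 164 CPM in Cmtr1 cKO 1 to 4. Nop58 was at 125 and 119 against 136, 137, 144 and 158 CPM. For both genes every Cmtr1 cKO library lay above both controls, as it did for 18.2% of all genes, though for Nop56 the nearest pair was close. Neither was called, with log2 fold changes of 0.20 ± 0.08 (SE, adjusted p from edgeR = 0.107) for Nop56 and 0.23 ± 0.08 (edgeR adjusted p = 0.0708) for Nop58. Fbl was at 38.4 and 40.8 against 39.4, 38.8, 38.0 and 50.2 CPM, so that Cmtr1 cKO 4 stood above the other 5 libraries, and its log2 fold change was 0.08 (95% interval -0.18 to 0.33).

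Among box H/ACA proteins the values went both ways. Dyskerin (Dkc1), the pseudouridine synthase, had a log2 fold change of 0.10 (95% interval -0.07 to 0.27). Its partners Nhp2, Nop10 and Gar1 had -0.11, -0.29 and 0.14. Nop10, the smallest core protein, was at 58.3 and 62.6 CPM in control cells, against 44.0, 49.3, 48.5 and 55.3 CPM in Cmtr1 cKO. All 4 of these lay below both controls, as for 20.8% of all genes, and the gene was not called (edgeR adjusted p = 0.0643). When the percent of non-exon reads was added to the fit, its value went from -0.29 to -0.08 (edgeR adjusted p = 0.715). It was called lower by edgeR without a filter and by limma with quality weights (adjusted p = 0.0324 and 0.012). Those fits called 4.43% and 13.3% of all genes lower. Naf1, which is replaced by Gar1 when the particle matures, was at 7.08 and 7.57 against 6.94, 5.99, 7.30 and 8.60 CPM. Nolc1 (Nopp140), a chaperone of both snoRNP types, was at 104 and 105 against 116, 113, 115 and 130 CPM, and its log2 fold change of 0.18 (95% interval 0.01 to 0.35) was not called (edgeR adjusted p = 0.141). Thus 0 of the 9 snoRNP members passed the test, while 3 were higher and 1 lower at an unadjusted p under 0.05, as were 15.1% and 15.7% of all genes tested. No snoRNP member was called by DESeq2 either.

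The 20 early 40S factors, most of them part of the small subunit processome that cuts the pre-rRNA around the 18S sequence, had a median log2 fold change of 0.006. Nop14, a scaffold of that particle, was the member with the largest rise. The gene (ENSMUSG00000036693.12) lies on chromosome 5 from 34638536 to 34660148, minus strand, in GRCm38, the build of all coordinates here. It was at 57.3 and 56.7 CPM in control cells, against 72.2, 74.6, 79.7 and 87.4 CPM in Cmtr1 cKO 1 to 4, with no overlap. The log2 fold change was 0.46 ± 0.09 (SE, adjusted p from edgeR = 0.00976). Utp18, a WD-repeat subunit (chromosome 11, 93859243 to 93885766, minus strand), was at 66.0 and 64.6 against 75.9, 79.6, 76.5 and 85.9 CPM, again without overlap, with 0.28 ± 0.08 (SE, adjusted p from edgeR = 0.0383). Imp3, which pairs the U3 snoRNA with pre-rRNA, went the other way without being called. It was at 41.5 and 44.3 CPM in control cells, against 32.3, 27.8, 36.0 and 38.2 CPM in Cmtr1 cKO, a log2 fold change of -0.35 ± 0.12 (SE, adjusted p from edgeR = 0.0707). With the covariate Imp3 had -0.08 (edgeR adjusted p = 0.787). It was called lower by edgeR without a filter and by limma with quality weights (adjusted p = 0.015 and 0.0151). Without a filter 4.43% of all genes were called lower, and with quality weights 13.3%.

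The remaining 17 early 40S members had log2 fold changes from -0.15 (Utp3) to 0.20 (Noc4l). Heatr1, a large subunit of the t-UTP complex that also supports rDNA transcription, was at 161 and 157 CPM against 169, 174, 172 and 178 CPM, a narrow gap that was not called (log2 fold change 0.12, 95% interval -0.02 to 0.26). It was named after its values were seen. The 6 late 40S factors, which finish the subunit around the last cleavage of 18S rRNA, all had positive values between 0.04 (Riok1) and 0.19 (Pno1), and 0 were called. None was called by DESeq2, and 0 had an unadjusted p under 0.05. Of all genes tested, 11.4% were called by edgeR in either direction. At that unadjusted p, 15.1% of them were higher and 15.7% lower. Pno1 (the Dim2 homologue, which holds the cleavage site with the nuclease Nob1) was at 23.1 and 23.7 against 27.3, 23.8, 26.8 and 28.6 CPM, so Cmtr1 cKO 2 sat at the level of the controls. Tsr1, a GTPase-like factor of the pre-40S particle, had 0.13 (95% interval -0.04 to 0.30).

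Of the 20 factors of the 60S pathway, 3 rose (15%), 1 fell (5%) and the median log2 fold change was 0.11. Of all genes tested, 4.66% were called higher and 6.77% lower. Nvl, an AAA ATPase that releases factors from pre-60S particles (chromosome 1, 181087138 to 181144204, minus strand), was at 99.0 and 89.7 CPM in control cells, against 133, 137, 136 and 112 CPM in Cmtr1 cKO 1 to 4. Cmtr1 cKO 4 stood nearest to the controls. Its log2 fold change was 0.46 ± 0.09 (SE, adjusted p from edgeR = 0.0124). Noc3l, part of a complex with Noc2l on pre-60S particles (chromosome 19, 38788128 to 38819237, minus strand), was at 38.1 and 39.1 against 49.4, 43.8, 47.8 and 48.9 CPM (0.30 ± 0.08, SE, adjusted p from edgeR = 0.0443). Noc2l had 0.06 (95% interval -0.10 to 0.23).

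Within 1 complex the values differed in sign. Pes1, Bop1 and Wdr12 form the PeBoW complex, which is needed to process the 3' part of the precursor into the rRNAs of the large subunit. Wdr12 lies on chromosome 1 (60069785 to 60098645, minus strand) and Pes1 on chromosome 11 (3963975 to 3980004, plus strand). Wdr12 was at 45.6 and 56.0 CPM in control cells, against 62.9, 64.2, 68.0 and 62.4 CPM in Cmtr1 cKO, with a log2 fold change of 0.34 ± 0.09 (SE, adjusted p from edgeR = 0.0373). The controls themselves were far apart for this gene, and without control 1 the value was 0.21. Pes1 was at 80.7 in each control and at 59.5, 55.7, 68.4 and 67.4 CPM, with -0.36 ± 0.09 (SE, adjusted p from edgeR = 0.0287). Bop1 was at 61.7 and 65.9 against 70.2, 71.5, 72.2 and 72.9 CPM, with 0.17 (95% interval 0.01 to 0.32, edgeR adjusted p = 0.14, not called).

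The other 4 members act in several steps of nucleolar RNA metabolism. Of these 1 was called lower and 0 higher, beside 6.77% and 4.66% of all genes tested. Ddx21, an RNA helicase that acts in rDNA transcription and pre-rRNA processing (chromosome 10, 62580251 to 62602281, minus strand), had the highest level per length (56.0 RPKM, which is CPM divided by exon length in kilobases, over the 6 libraries) and fell. It was at 333 and 341 CPM in control cells, against 249, 242, 276 and 298 CPM in Cmtr1 cKO, a log2 fold change of -0.34 ± 0.09 (SE, adjusted p from edgeR = 0.0326). The 4 Cmtr1 cKO libraries lay below both controls, with Cmtr1 cKO 4 nearest. Nucleolin (Ncl), an abundant nucleolar phosphoprotein that binds pre-rRNA, was at 332 and 363 against 317, 309, 289 and 345 CPM, and overlapped. Mybbp1a, a nucleolar repressor of transcription, was at 181 and 191 against 200, 198, 216 and 239 CPM and was not called (0.20, edgeR adjusted p = 0.149). Lyar, a zinc-finger protein of pre-rRNA processing, had 0.02 (95% interval -0.20 to 0.25).

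**Figure D3:**
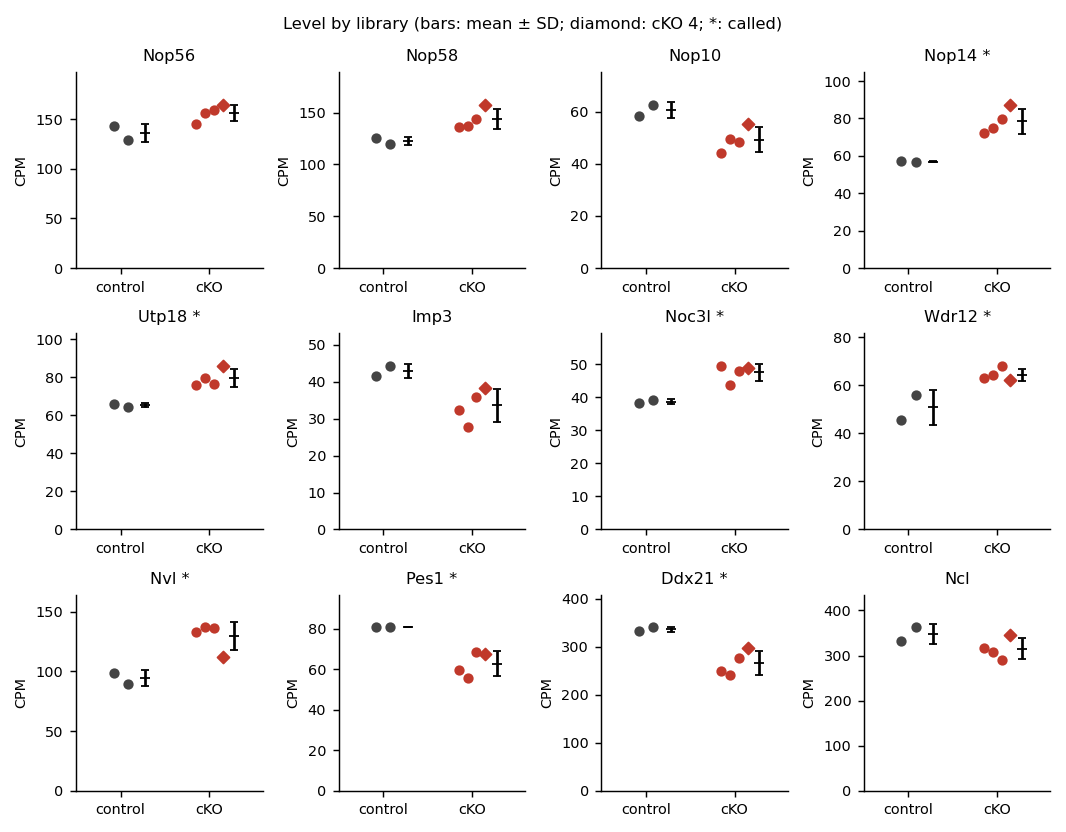
CPM by library for 12 members, with controls in grey, Cmtr1 cKO in red, Cmtr1 cKO 4 as a diamond, and the mean ± SD as a bar; an asterisk marks the 7 called members. Nop14, Utp18, Noc3l, Wdr12 and Nvl lie higher and Pes1 and Ddx21 lower in all 4 Cmtr1 cKO libraries, and Ncl overlaps.

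The 7 calls rest on few libraries. Without control 1 or without control 2, 0 members were called in either direction by edgeR, where 0.529% and 0.299% of all genes tested were called higher and 1.43% and 1.18% lower. Without Cmtr1 cKO 1, 2, 3 or 4, 2, 2, 2 and 7 members were higher and 0, 0, 1 and 7 lower. Of all genes tested, 2.15%, 1.81%, 1.75% and 15.4% were called higher in those fits and 3.73%, 3.44%, 3.03% and 15.4% lower, so the 7 of 59 (11.9%) in each direction without Cmtr1 cKO 4 were no more than the background. Nop14 and Nvl kept their calls without any 1 of the 4 Cmtr1 cKO libraries, with log2 fold changes of 0.40 to 0.50 and 0.43 to 0.52. With the percent of non-exon reads in the fit, Nop14 (0.66, edgeR adjusted p = 2.96e-05) and Utp18 (0.39, edgeR adjusted p = 0.00758) stayed called, while the values of Nvl, Pes1 and Ddx21 moved to 0.22, -0.19 and -0.12 and were not called. Noc3l and Wdr12 kept values of 0.35 and 0.36 but were not called either. DESeq2 called Nop14, Nvl, Wdr12, Pes1 and Ddx21 but not Utp18 or Noc3l, with 5.33% of all genes higher and 5.86% lower. On unstranded counts only Nop14, Nvl, Pes1 and Ddx21 of the 7 were called, with 3.81% of all genes higher and 5.08% lower. In the fit with the covariate Nop56, Nop58, Nolc1, Ddx10 and Mybbp1a were also called higher, 7 members in all, and 0 members lower, beside 2.51% and 2.71% of all genes.

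The choice of scaling shifts all members together. One alternative scaled by total gene count, with the ribosomal RNA gene named above left out of the total. By this scaling the median of all genes tested moved by about 0.14 on the log2 scale, and the members' median moved from 0.06 to 0.20. Relative to all genes the members' median was thus little changed, but 22 members (37.3%) were then called higher and 0 lower, beside 15.2% and 3.3% of all genes tested. Pes1 and Ddx21 kept negative values of -0.22 and -0.20 there (edgeR adjusted p = 0.0936 and 0.0994). Upper-quartile scaling, and TMM factors without the ribosomal protein genes, gave 5 higher and 2 lower, the same genes as above, beside 5.04% and 4.94% of all genes called higher and 6.23% and 6.41% lower.

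Across libraries, Cmtr1 cKO 4 most often held the highest level. It had the highest CPM of the 6 libraries for 32 of the 59 members and the lowest for 0, while the controls held the lowest for 16 and 19. Set against the mean of the controls, the members had median log2 differences of 0.04, 0.02, 0.08 and 0.14 in the Cmtr1 cKO libraries, 1 to 4 in order. For the ribosomal protein genes these medians were -1.19, -1.06, -0.87 and -0.68, so Cmtr1 cKO 4 was nearest to the controls for them and farthest for the members. For 19 members (32.2%) all 4 Cmtr1 cKO libraries lay above both controls, and for 6 (10.2%) all lay below, beside 18.2% and 20.8% of all genes tested. The 6 were Nop10, Utp15, Imp3, Pes1, Sbds and Ddx21.

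**Figure D4:**
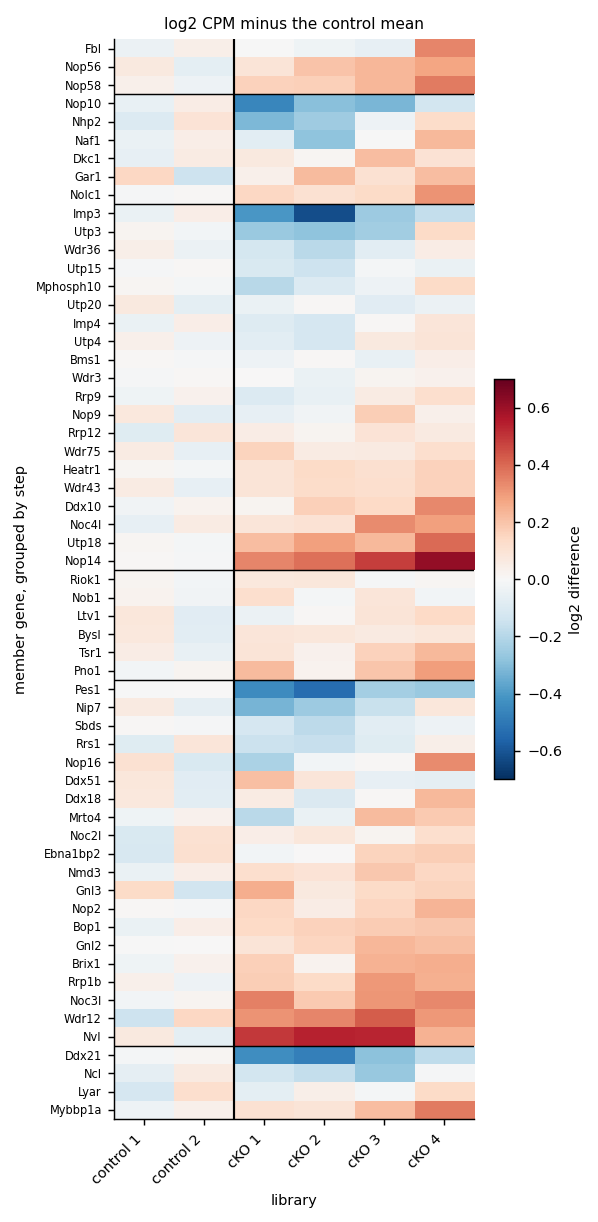
Log2 CPM minus the control mean for the 59 members (rows, grouped by step in the order box C/D, box H/ACA, early 40S, late 40S, 60S and other nucleolar) in each library (columns), with red higher and blue lower. Nop14, Wdr12 and Nvl are red in all 4 Cmtr1 cKO columns, Imp3, Pes1, Nop10 and Ddx21 are blue in all 4, and cKO 4 is the reddest column.

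Levels per length differed widely among members. Over the 6 libraries the mean RPKM ran from 2.34 (Naf1) to 56.0 (Ddx21), with a median of 15.2. Ddx21 was followed by Noc2l (48.5), Nop10 (47.8), Imp3 (39.7) and Wdr43 (39.6), an early 40S factor. Within the box H/ACA core the partners in the particle were at 47.8 (Nop10), 28.1 (Nhp2), 24.4 (Dkc1) and 5.60 (Gar1) RPKM. Lengths are those of all annotated exons of a gene, so a gene with long alternative exons, such as Nvl with 13488 exon bases, has a lower RPKM than its main transcript would give.

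The sequences at the annotated starts are shown because ribosomal protein mRNAs typically begin with a C followed by a tract of pyrimidines, the 5' terminal oligopyrimidine (TOP) motif, which few assembly factor mRNAs carry. RefSeq windows of GRCm38.p6, from 250 bases before to 50 after an annotated start, matched 51 of the 59 members (55 windows). A C at the first base followed by at least 4 further C or T letters was found in 1 of these 55 windows (1.82%), that of Utp3. Among the windows of ribosomal protein genes it was found in 15 of 74 (20.3%), among those of all genes tested in 2.42% and among all 32851 windows in 2.51%. Annotated starts are not measured starts, so a shift of a few bases hides such a tract. A run of at least 8 C or T letters close to the start, on either side, was found in 2 of the 55 member windows (3.64%). It was found in 31.1% of windows of ribosomal protein genes, 8.23% of those of genes tested and 7.89% of all windows. The 40 bases around the start of the 2 members with the largest rises, of the 2 that fell, of Utp3 and, for contrast, of the ribosomal protein gene Rps6 follow. They read 5' to 3' on the gene's strand, 20 bases before and 20 from the start on, with the tract in capitals where there is one.
Nop14 (chr5:34660129-34660168, minus strand): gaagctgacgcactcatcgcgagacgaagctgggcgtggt
Nvl (chr1:181144185-181144224, minus strand): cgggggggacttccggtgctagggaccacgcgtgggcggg
Pes1 (chr11:3963955-3963994, plus strand): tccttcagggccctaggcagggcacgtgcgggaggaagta
Ddx21 (chr10:62602279-62602318, minus strand): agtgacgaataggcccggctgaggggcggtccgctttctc
Utp3 (chr5:88554442-88554481, plus strand): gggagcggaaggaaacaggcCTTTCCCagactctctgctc
Rps6 (chr4:86857348-86857387, minus strand): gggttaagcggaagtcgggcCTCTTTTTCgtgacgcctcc
Rps6 was at a log2 fold change of -0.95 ± 0.11 (SE, adjusted p from edgeR = 0.000599), and Utp3 at -0.15 (95% interval -0.40 to 0.10, not called).

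Many nucleolar genes are known targets of the transcription factor MYC, which binds the E-box CACGTG, a palindrome that reads the same on both strands. The letters CACGTG were found in 12 of the 55 member windows (21.8%) and in 16 of 91 windows of other pathway genes (17.6%). They were found in 10.8% of windows of ribosomal protein genes, 10.2% of those of genes tested and 7.15% of all windows. CACGTG holds a CG, and windows differ in CG. The median was 23 CG in member windows, 21 for other pathway genes and for genes tested, and 22 for ribosomal protein genes. Over all windows it was 7. The part of CG content in these shares was not tested. Members with and without a match had median log2 fold changes of 0.13 (12 genes, 1 called higher and 1 lower) and 0.05 (39 genes, 4 higher and 1 lower). Myc itself had a log2 fold change of -0.17 ± 0.10 (SE, adjusted p from edgeR = 0.279). A match is a description of letters, not a binding site. The match, in capitals, is shown with up to 15 bases on each side for 5 members where it lay before or within 20 bases after the start, since these include a called member of each direction.
Utp18 (chr11:93885766-93885801, minus strand): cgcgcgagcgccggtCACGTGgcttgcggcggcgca
Pes1 (chr11:3963962-3963994, plus strand): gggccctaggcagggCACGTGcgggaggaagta
Nop2 (chr6:125131808-125131843, plus strand): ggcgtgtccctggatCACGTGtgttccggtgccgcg
Nmd3 (chr3:69721926-69721961, plus strand): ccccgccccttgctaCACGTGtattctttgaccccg
Imp4 (chr1:34439693-34439728, plus strand): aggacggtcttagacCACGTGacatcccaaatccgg
Utp18 rose and Pes1 fell. Nop2, the 28S rRNA cytosine methyltransferase, Nmd3, the export adaptor of the 60S subunit, and Imp4, a partner of Imp3, had 0.15, 0.14 and -0.03 and were not called.

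The rest of the pathway was read from 102 further genes of the same processes. Of these 9 were called higher and 4 lower (8.82% and 3.92%, beside 4.66% and 6.77% of all genes), with a median log2 fold change of 0.0099. Other 40S factors had 1 higher and 1 lower of 36, other 60S factors 6 and 3 of 50, and snoRNP assembly factors 2 and 0 of 9. Pre-rRNA nucleases had 0 and 0 of 7, also in DESeq2, but 1 of 7 was higher at an unadjusted p under 0.05. At that unadjusted p, 15.1% of all genes tested were higher and 15.7% lower.

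Of these genes the one with the largest rise was Znhit6, a box C/D assembly factor. It was at 9.53 and 7.38 CPM in control cells, against 15.1, 13.2, 14.2 and 14.9 CPM in Cmtr1 cKO, a log2 difference of 0.76 ± 0.15 (SE, adjusted p from edgeR = 0.0111). Without control 1 the value was 0.97, and without control 2 it was 0.60. Nufip1, of the same assembly machinery, rose by 0.42 ± 0.10 (SE) on the log2 scale. Nat10, the rRNA cytidine acetyltransferase, was at 71.2 and 65.2 against 99.2, 99.6, 99.2 and 76.6 CPM. Like Nvl it was nearest to the controls in Cmtr1 cKO 4, and its value went from 0.46 to 0.14 with the covariate (edgeR adjusted p = 0.429). Nor was Nat10 called without Cmtr1 cKO 1, 2 or 3 (edgeR adjusted p = 0.0518, 0.0548 and 0.0688). Nol12 and the helicase gene Ddx56 rose by 0.41 and 0.40. Without control 1 or control 2 the values were 0.44 and 0.40 for Nol12, and 0.38 and 0.44 for Ddx56. They were 0.47 and 0.39 for Nufip1, and 0.53 and 0.41 for Nat10. All these rises were called with 2 controls, and a fit without control 1 or control 2 has only 1 left. Nol12 was not called without Cmtr1 cKO 1 or 3 (edgeR adjusted p = 0.0751 and 0.0825). Nufip1 was not called without Cmtr1 cKO 2 (edgeR adjusted p = 0.051).

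The 4 genes that fell had larger changes than any member. Nucleophosmin (Npm1), a histone and ribosome chaperone of the nucleolus, was at 781 and 785 CPM in control cells, against 459, 482, 547 and 587 CPM in Cmtr1 cKO, a log2 fold change of -0.59 ± 0.10 (SE, adjusted p from edgeR = 0.00415). Nsa2, a pre-60S factor, was at 184 and 190 against 94.0, 106, 114 and 125 CPM (-0.77 ± 0.10, SE, adjusted p from edgeR = 0.000819). Nop53, which brings the RNA exosome to pre-60S particles, was at 319 and 352 against 195, 202, 241 and 255 CPM (-0.59 ± 0.11, SE, adjusted p from edgeR = 0.00737). With the percent of non-exon reads in the fit, Npm1 went to -0.34, Nsa2 to -0.51 and Nop53 to -0.28, and all 3 stayed called (edgeR adjusted p = 0.00328, 0.000296 and 0.0337). Utp14b, described below, went to -0.87 there. Without control 1 or control 2 the values were -0.59 and -0.58 for Npm1, and -0.78 and -0.73 for Nsa2. They were -0.65 and -0.50 for Nop53, and -0.48 and -0.69 for Utp14b. These 4 calls were made with 2 controls, and a fit without control 1 or control 2 has only 1 left. For Npm1, Nsa2 and Nop53, Cmtr1 cKO 1 was lowest and Cmtr1 cKO 4 highest among the Cmtr1 cKO libraries, with no overlap with the controls. Utp14b, a retrogene copy of Utp14a, was at 29.3 and 25.3 against 19.7, 19.1, 16.8 and 16.1 CPM (-0.61 ± 0.12, SE, adjusted p from edgeR = 0.0109). Its reads are uncertain, since reads that also map to its parent gene enter no count.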

How the data were processed

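The authors deposited raw read counts per gene, in the layout of STAR's gene table (1 unstranded and 2 stranded columns). The submitters' processing notes name STAR 2.5.2b and edgeR as tools and mm10 and GRCm38 as builds. No source used here gives the counting annotation. Rows that name no gene (52.1% to 62.0% of reads) were left out. Of the stranded columns, the one holding at least 5-fold more reads in every library was used. STAR counts only reads that map to 1 place and 1 gene. Identifiers were matched to GENCODE vM21 (46488 of 46983), which gave symbols and exon lengths.

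Genes kept by filterByExpr (12748) were scaled by TMM and tested with edgeR 4.0.16 (R 4.3.3; glmQLFit robust, glmQLFTest, genotype only), with Benjamini-Hochberg adjustment over all of them and a threshold of 0.05. SE is the log2 fold change over the square root of F, and 95% intervals use the fit's degrees of freedom. CPM and RPKM use TMM library sizes. The code was tested on simulated data. Alternatives used DESeq2 1.42.0, limma 3.58.1 and other scalings, filters, columns and covariates. Named genes were the called members, the snoRNP members, in each other group the highest RPKM and the 2 largest changes at 5 CPM or more, and up to 5 called pathway genes in each direction. Other genes named were picked after their values were seen. Members and lists were chosen with earlier results of these data known.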

Additional observations from a re-analysis of the deposited data

Results flagged for a closer look

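In 3 of the 59 members, Cmtr1 cKO 4 lay far from the other 3 Cmtr1 cKO libraries by Dixon's test at the 95% level for 4 samples, which chance gives in about 1 of 20 groups. Fbl was at 50.2 CPM there against 38.0 to 39.4 CPM in the others, and Utp3 at 67.9 CPM against 50.7 to 52.2 CPM. Nvl was at 111.7 CPM against 133 to 137 CPM, so that this library was lower for Nvl and higher for Fbl and Utp3.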

How the results depend on the processing

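The 7 called members kept their sign in all 105 values from the alternatives, and 28 of 42 with a library left out and 12 of 63 others were not called. Members called higher numbered 22 by total count scaling, 3 in DESeq2 and 2 on unstranded counts, against 5. Members called lower numbered 0 by total count scaling or with the covariate, 4 without a filter or with limma's quality weights, and 8 with the replicate block, against 2. Of all genes tested, 15.2% were called higher by total count scaling, 5.33% in DESeq2 and 3.81% on unstranded counts. With the block it was 18.8% and with quality weights 11.5%. Called lower were 3.3% by total count scaling, 2.71% with the covariate, 4.43% without a filter, 13.3% with quality weights and 19.2% with the block. Of members, 6.78% without a filter or with quality weights and 13.6% with the block were lower. Other pathway genes called higher were 30 by total count scaling, 5 on unstranded counts, 18 with the block and 14 with quality weights, against 9, and lower 13 with the block and 8 with quality weights, against 4. With 1 library left out these 4 counts ran from 0 to 7, 0 to 7, 0 to 15 and 1 to 9. The block called 2394 genes higher and 2448 lower. Titles share numbers 1 and 2 only, and these numbers do not show pairing. Deviations from the group mean in Cmtr1 cKO 1 and 2 correlated at 0.13 with those of control 1 and at -0.13 with those of control 2. With 2 controls the opposite signs are fixed by construction, so they do not bear on pairing. Cmtr1 cKO 3 and 4 add nothing to that fit. Medians of all members, box C/D, box H/ACA, early 40S, late 40S, 60S and other nucleolar genes were 0.20, 0.34, 0.18, 0.15, 0.20, 0.25 and 0.086 by total count scaling, and 0.17, 0.36, 0.21, 0.13, 0.10, 0.22 and 0.077 with the covariate. With 1 library left out they ran from 0.05 to 0.10, 0.14 to 0.28, -0.01 to 0.09, -0.02 to 0.03, 0.033 to 0.15, 0.10 to 0.17 and -0.14 to 0.047. Of the 52 uncalled members, 12 changed sign by total count scaling, 13 with the covariate, 10 with the block and 2 to 8 with 1 library left out. Among the 14 of them followed singly these were Fbl (-0.016 with the block, -0.029 without Cmtr1 cKO 4), Nhp2 (0.035 by total count, 0.24 with the covariate), Naf1 (0.12 and 0.30 likewise, 0.039 without control 2, 0.061 without Cmtr1 cKO 2) and Noc2l (-0.030 without control 1). With 1 library left out Naf1 ran from -0.12 to 0.06 and Noc2l from -0.03 to 0.19. The cause was not tested.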

Other observations

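Several members carry small nucleolar RNA genes within their bodies. GENCODE vM21 places 21 of them inside 7 members (Nop56, Nop58, Dkc1, Wdr43, Tsr1, Gnl3 and Ncl), on the same strand. Reads on them were few, at most 57 in a library, and 7 had 0 reads in every library. All 7 are among the 10 that overlap annotated exons of their host, where STAR counts a read that falls on both genes for neither. None of the 11 within introns was at 0 throughout. In the others, 8 passed the filter and 0 were called by edgeR, with log2 fold changes from -0.59 to 1.08 and a smallest adjusted p of 0.187. Snord53 within Wdr43 had the most reads, 40 and 34 in the controls and 57, 55, 31 and 43 in Cmtr1 cKO 1 to 4.

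Members with more exons had somewhat higher log2 fold changes. Spearman's rho between the number of exon blocks of a gene and its log2 fold change was 0.35 across the 59 members, 0.26 across the 102 other pathway genes and 0.24 across 10521 protein-coding genes tested. Genes are not independent replicates, and all values share the same 6 libraries. The 3 members with 1 exon block, Imp3, Rrs1 and Utp3, had log2 fold changes of -0.35, -0.09 and -0.15, and the 275 protein-coding genes of that kind had a median of -0.15 against -0.02 for those with more blocks.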
